A study of Mus musculus with 96 samples.

Results

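The inflammatory genes followed here across liver cells, genotypes and times of day were 10: the cytokines Il1b and Tnf, the chemokines Ccl2, Ccl3, Ccl4, Cxcl2 and Cxcl10, the NF-kB feedback inhibitors Nfkbia and Tnfaip3, and the inflammasome sensor Nlrp3. They were taken by gene symbol, 10 of 25095 symbols in the deposited tables, and where a gene had several transcripts, that with the largest average stood for it. The libraries were made from hepatocytes and from liver macrophages of male C57BL/6J mice that were injected at 8 weeks of age and then fed a high fat, high sucrose diet for 4 weeks under a 12 h light and dark cycle. Control mice carried the floxed alleles and received AAV-TBG-GFP. RevDKO mice received AAV-TBG-CRE, which deletes the clock repressors Nr1d1 and Nr1d2 (Rev-erb alpha and beta). RevScapTKO mice additionally lost Scap, the chaperone that carries SREBP to be cleaved, and ScapKO mice were targeted at Scap without the Rev-erb alleles. The TBG promoter directs the virus to hepatocytes, so in every genotype the macrophages themselves were not the targeted cells, and all mice, controls included, were on the obesogenic diet. Livers were taken at zeitgeber time (ZT) 4, 10, 16 and 22, counted in hours from lights on, with 3 libraries in each of 32 groups of cell type, genotype and time, 96 libraries in all.

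NF-kB is held in the cytoplasm by IkB proteins, and signals from IL-1 and TNF receptors or Toll-like receptors release it to switch on cytokine and chemokine genes. Among its targets are its own brakes: Nfkbia encodes the inhibitor IkB alpha, and Tnfaip3 encodes A20, a ubiquitin-editing enzyme that shuts down the upstream signal. In the liver, Kupffer cells and recruited monocytes are the best known source of these cytokines, while hepatocytes respond to them.

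The stretches of promoter that carry recognizable NF-kB letters are shown for the genes whose level passed a test below and whose start site was listed. RefSeq windows on GRCm38.p6 matched 8 of the 10 genes, all but Ccl2 and Ccl4. The 250 bases before each start were searched on both strands for the NF-kB consensus and for the AP-1 motif TGANTCA, whose pattern is the same on both strands. Capitals mark the matches, and each sequence is written 5′ to 3′ on the strand of the gene. Tnfaip3 is shown from the first of its 2 windows and Nlrp3 from the second of its 2, since the other window of each held no match.
Cxcl10: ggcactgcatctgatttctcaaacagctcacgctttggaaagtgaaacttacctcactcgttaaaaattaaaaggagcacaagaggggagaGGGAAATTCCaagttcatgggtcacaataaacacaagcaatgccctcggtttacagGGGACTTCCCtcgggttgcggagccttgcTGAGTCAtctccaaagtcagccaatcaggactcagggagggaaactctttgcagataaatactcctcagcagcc
Tnfaip3: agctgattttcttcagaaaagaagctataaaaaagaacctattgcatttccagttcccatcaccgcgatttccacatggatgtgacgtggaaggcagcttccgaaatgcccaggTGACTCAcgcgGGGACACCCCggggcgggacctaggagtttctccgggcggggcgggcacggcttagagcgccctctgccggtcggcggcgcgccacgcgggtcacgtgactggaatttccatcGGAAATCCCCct
Nfkbia: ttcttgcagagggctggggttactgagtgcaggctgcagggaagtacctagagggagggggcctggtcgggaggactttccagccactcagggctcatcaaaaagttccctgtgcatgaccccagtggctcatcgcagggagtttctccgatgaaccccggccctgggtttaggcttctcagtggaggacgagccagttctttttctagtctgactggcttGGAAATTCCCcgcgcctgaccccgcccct
Nlrp3: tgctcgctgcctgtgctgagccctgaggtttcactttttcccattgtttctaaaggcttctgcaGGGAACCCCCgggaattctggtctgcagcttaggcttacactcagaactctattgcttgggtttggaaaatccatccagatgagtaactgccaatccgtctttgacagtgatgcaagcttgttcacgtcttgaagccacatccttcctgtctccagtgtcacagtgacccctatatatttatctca

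The Cxcl10 stretch (chr5:92348890-92349139, minus strand) held 2 NF-kB matches, GGGAAATTCC and GGGACTTCCC, and an AP-1 match, TGAGTCA. The Tnfaip3 stretch (chr10:19015411-19015660, minus strand) held an AP-1 match and 2 NF-kB matches, of which GGAAATCCCC, read on the opposite strand, ended 3 bases before the start. The other Tnfaip3 window (chr10:19011964-19012213) held no match. The Tnfaip3 values of Control, RevDKO and RevScapTKO came from a transcript that starts at chr10:18731769 (mm9). Another Tnfaip3 transcript starts upstream of it, at chr10:18735216, and the window without a match is the downstream one of the 2. The Nfkbia stretch (chr12:55492648-55492897, minus strand) held GGAAATTCCC and the Nlrp3 stretch (chr11:59541319-59541568, plus strand) held GGGAACCCCC, both on the opposite strand. Together with Cxcl2, 5 of the 8 genes held an NF-kB match and 2 held an AP-1 match. Of all 27018 genes with such windows, 4.46% held the NF-kB consensus and 7.82% the AP-1 motif in at least 1 window. A match is a run of letters and was not examined for binding.

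In the deposited annotation (mm9) Il1b lies at chr2:129190314-129196875 on the minus strand and Tnf at chr17:35336312-35338952, also minus. Ccl2 (chr11:81849079-81850954), Ccl3 (chr11:83461345-83462880) and Ccl4 (chr11:83476086-83478185) share chromosome 11 with Nlrp3 (chr11:59355071-59380455). Cxcl2 (chr5:91332925-91334964) and Cxcl10 (chr5:92775665-92777915) lie on chromosome 5. Nfkbia is at chr12:56590396-56593634 and Tnfaip3 at chr10:18720717-18731769, both on the minus strand. All 10 are protein-coding RefSeq transcripts and the values cover the transcript.

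Values are RPKTM, reads per kilobase of transcript at 10 times the usual RPKM scale, after quantile normalization, which leaves every library of a table with the same total, and sequencing depths were not known. Levels were compared only within a table: 1 table per cell type for Control, RevDKO and RevScapTKO, and 1 per cell type for ScapKO. In the hepatocyte table Scap followed its labels, with 82.8 to 299 RPKTM in RevScapTKO against 395 to 698 in Control. Nr1d1 went against the label: over its whole transcript its median was 45.9 RPKTM in the Control libraries, 91.3 in the RevDKO libraries and 131 in the RevScapTKO libraries (RevDKO minus Control, log2 difference 1.55, adjusted p = 8.87e-05 by limma). It ran from 3.57 to 358 RPKTM in Control, from 39.9 to 359 in RevDKO and from 51.2 to 231 in RevScapTKO. Control and RevDKO thus differed in their lowest values and not in their highest. Nr1d2 was not lower either, with medians of 218, 320 and 361 RPKTM in that order (RevDKO minus Control 0.62, adjusted p = 0.0626; RevScapTKO minus Control 0.95, adjusted p = 0.000318). Which exons were deleted was not given in the sources used here, and RevDKO and RevScapTKO below therefore mean the libraries so labelled. All 12 macrophage markers, among them Adgre1, Csf1r and Clec4f, were above 5 RPKTM in at least 3 libraries of each genotype in both cell types. Their sum was 378 to 3715 RPKTM in Control hepatocyte libraries, 642 to 2931 in RevDKO and 1148 to 7497 in RevScapTKO, and 3608 to 41387, 4346 to 35043 and 5492 to 34431 RPKTM in the macrophage libraries of those genotypes. Alb, a hepatocyte transcript, made up 13.7% to 27.5% of the column sum in 3 macrophage libraries (Control ZT16 replicate 1, Control ZT22 replicate 1 and RevScapTKO ZT22 replicate 3). In the others it made up 0.268% to 1.25%. Quantile normalization fixes such shares by rank, and the top value of every library in that table is 27.5% of its sum. The percentages therefore give the rank of Alb and not its amount. Control ZT22 replicate 1 also had the highest macrophage marker sum, 41387 RPKTM. Hepatocyte transcripts were not limited to the 3 libraries high in Alb. The 11 hepatocyte markers summed to a median of 98910 RPKTM over Control macrophage libraries, where the macrophage markers summed to 19431. For RevDKO the medians were 103380 and 10031, and for RevScapTKO 101010 and 10916. ScapKO macrophage libraries had the reverse order, 53740 and 134974. How much of each level below came from hepatocytes was not tested. Since these are bulk samples, fewer cells of a type and less RNA per cell cannot be told apart.

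In liver macrophages all 10 genes passed the filter on low values (above 5 RPKTM in at least 3 of 36 libraries). The order of their median levels was Nfkbia at 75.0 RPKTM, Il1b at 33.1, Nlrp3 at 22.4, Tnfaip3 at 20.4, Cxcl10 at 11.2, Ccl3 at 5.71, Tnf at 3.45, Ccl4 at 1.7, Ccl2 at 1.69 and Cxcl2 at 0.630. Each neighbouring pair in that order overlapped between libraries. Ccl2 and Cxcl2 were listed at 0 in 12 of 36 libraries each, and Tnf and Ccl4 in 6 each. In hepatocyte libraries Nfkbia was again highest (median 62.6 RPKTM), followed by Tnfaip3 (17.2), Nlrp3 (5.68), Cxcl10 (4.88) and Il1b (4.01), and these 5 passed the filter. Ccl2, Ccl3, Ccl4, Cxcl2 and Tnf did not, with medians of 0.380 RPKTM or lower and 16 to 25 of 36 libraries listed at 0.

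The comparison of RevScapTKO with RevDKO asks what the added loss of Scap in hepatocytes does to the genes in macrophages. Ccl2, the chemokine that draws monocytes through CCR2, rose, and it was the only gene of the 10 that passed the test. In RevDKO macrophages Ccl2 ranged from 0 to 7.58 RPKTM with a median of 0, and 7 of 12 libraries were listed at 0. In RevScapTKO macrophages it ranged from 0.204 to 13.3 RPKTM with a median of 4.52, and no library was listed at 0. By time, RevScapTKO held 4.03, 13.3 and 7.38 RPKTM at ZT4, 8.37, 3.67 and 0.204 at ZT10, 2.80, 5.90 and 1.92 at ZT16 and 7.15, 5.02 and 2.16 at ZT22. The RevDKO libraries held 0, 7.58 and 1.71 RPKTM at ZT4, 0, 0 and 1.13 at ZT10, 0 in all 3 at ZT16 and 1.13, 0 and 0.498 at ZT22. The ranges of the genotypes overlapped over the day but not at ZT16 or ZT22.

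The mean difference of Ccl2 over the day was 1.76 ± 0.39 on the log2(RPKTM + 1) scale (SE, n = 12 per genotype, adjusted p = 0.00646 by limma over 13947 genes), a scale that understates the change of a low gene: with a pseudocount of 0.1 the difference was 3.59 (adjusted p = 0.0109). The call held without the 3 libraries high in Alb (1.86, adjusted p = 0.00230) and with the macrophage marker score as a covariate (1.71, adjusted p = 0.00214). Markers of other cells moved in the same libraries: the stellate cell markers Col1a1 (1.58, adjusted p = 0.00501) and Col3a1 (0.88, adjusted p = 0.0146) rose, 2 of 7, and of 11 hepatocyte markers Cps1 (-1.18) and Ass1 (-1.34) fell and Cyp3a11 rose (2.11). With the hepatocyte marker score as a covariate Ccl2 stood at 1.6735 (adjusted p = 0.0129), and the part of stellate cells was not tested. Over all genes, 419 of 13947, or 3.0%, were called in this comparison, against 1 of the 10. The median difference of the 10 was 0.88 and that of all genes 0.04. For 9 of the 10 the estimate was positive. An unadjusted limma p under 0.05 was found for 4 of the 10 and for 2538 of the 13947 genes.

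Cxcl10, the interferon-inducible chemokine that attracts T cells through CXCR3, had the next largest estimate in macrophages without passing the test. Its values ran from 0 to 17.8 RPKTM with a median of 8.57 in RevDKO and from 6.88 to 54.5 with a median of 15.5 in RevScapTKO. The highest RevScapTKO values were 54.5 RPKTM at ZT4 and 39.4 at ZT22, and the groups overlapped. The difference was 1.33 ± 0.43 (SE, n = 12, limma adjusted p = 0.0888). It passed without RevDKO ZT16 replicate 2 (1.593, adjusted p = 0.0225), without RevDKO ZT22 replicate 3 (1.53, adjusted p = 0.0401) and with the macrophage marker score in the fit (1.27, adjusted p = 0.0465). The neutrophil chemokine Cxcl2 (1.10, adjusted p = 0.127), Ccl4 (0.94, adjusted p = 0.184), Il1b (0.90, adjusted p = 0.324), Tnf (0.85, adjusted p = 0.291), Ccl3 (0.50, adjusted p = 0.612) and Tnfaip3 (0.47, adjusted p = 0.435) had positive estimates in limma's fit. Nfkbia stood at 0.15 ± 0.19 and Nlrp3 at -0.04 ± 0.27 (SE), the estimates nearest to 0.

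**Figure D1:**
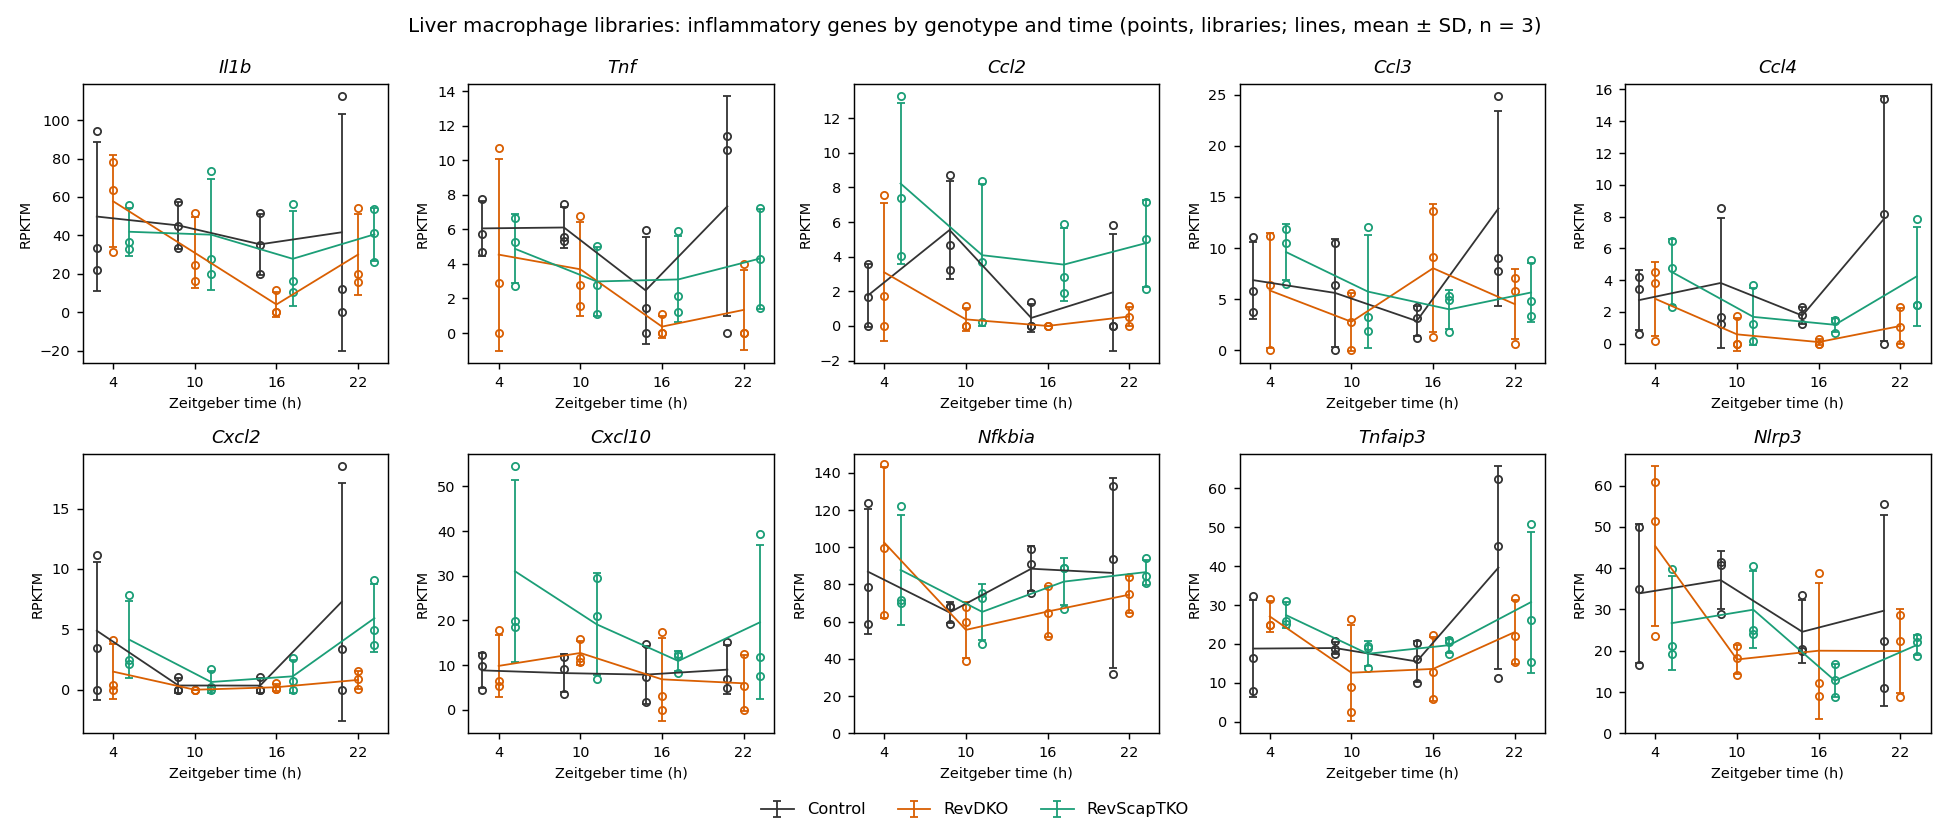
RPKTM of the 10 genes in liver macrophage libraries against zeitgeber time in hours; each circle is a library, and lines and bars join the mean ± SD of 3 libraries per genotype. Ccl2 in RevDKO was listed at 0 in all 3 libraries at ZT16, where the RevScapTKO libraries held 1.92 to 5.90 RPKTM, and Il1b in RevDKO stood at 0.187 and 0.219 RPKTM in 2 of 3 libraries at ZT16.

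RevDKO against Control asks what loss of the hepatocyte clock repressors does to the same genes, and it shares its RevDKO libraries with the comparison above. No gene of the 10 passed the test in macrophages, where 80 of 13947 genes, 0.574%, were called. Estimates for all 10 were below 0, with a median of -0.58 against -0.04 over all genes. An unadjusted limma p under 0.05 was found for 2 of the 10 and for 1934 of the 13947 genes. The 12 macrophage markers also had estimates below 0: none was called, and their median was -0.54. With the macrophage marker score in the fit the estimates of Cxcl10 (0.14) and Nfkbia (0.09) were above 0.

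The lowest estimates were those of Ccl4 and Tnf. Ccl4, which attracts macrophages and T cells, ran from 0 to 15.4 RPKTM in Control (median 2.04) and from 0 to 4.53 in RevDKO (median 0.224), a difference of -1.09 ± 0.40 (SE, n = 12, limma adjusted p = 0.228). Tnf ran from 0 to 11.4 RPKTM in Control (median 5.64) and from 0 to 10.7 in RevDKO (median 1.32), a difference of -1.08 ± 0.43 (adjusted p = 0.271). The genotypes overlapped for both. Control ZT22 replicate 3 was listed at 0 for Ccl4 and Tnf and had the lowest macrophage marker sum of the Control macrophage libraries, 3608 RPKTM. Without that library both genes passed, Ccl4 at -1.39 (adjusted p = 0.0236) and Tnf at -1.38 (adjusted p = 0.0462).

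RevScapTKO against Control, which shares libraries with both comparisons, called none of the 10 in macrophages, where 524 genes, 3.76%, were called. Ccl2 had a median of 1.53 RPKTM and a highest value of 8.72 in Control, and the difference was 1.08 ± 0.39 (SE, n = 12, limma adjusted p = 0.125). Without the 3 libraries high in Alb it was 1.51 (adjusted p = 0.0287), without Control ZT22 replicate 1 alone 1.312 (adjusted p = 0.0377), and with the macrophage marker score 1.39 (adjusted p = 0.0217). Cxcl10 stood at 1.06 ± 0.43 (adjusted p = 0.176) and passed with the macrophage marker score in the fit (1.41, adjusted p = 0.0366). The other 8 lay between -0.42 (Nlrp3) and 0.40 (Cxcl2). The monocyte marker Ly6c2 rose in this comparison by 1.191 ± 0.34 (adjusted p = 0.0407), the only called gene of 6 monocyte markers, while 0 of 12 macrophage markers were called and their median was -0.55. The stellate cell markers Col1a1 (1.89, adjusted p = 0.000605) and Col3a1 (1.21, adjusted p = 0.000419) rose as well, 2 of 7, and the hepatocyte marker Cps1 fell (-0.89, adjusted p = 0.00548). Their part in these values was not tested.

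Il1b, the cytokine cleaved by caspase-1, had the largest fitted swing over the day of the 7 genes that passed the rhythm filter in RevDKO macrophages. Its RevDKO values were 63.7, 78.2 and 31.4 RPKTM at ZT4, 16.5, 24.5 and 51.7 at ZT10, 0.219, 0.187 and 11.6 at ZT16 and 54.1, 15.8 and 20 at ZT22. All 3 RevDKO libraries at ZT16 lay below the Control libraries of that time (51.5, 19.6 and 34.9 RPKTM), and the RevScapTKO libraries there held 56.2, 10.6 and 16.5. The macrophage marker sum was lower in the same libraries: it was 28285, 35043 and 13793 RPKTM at ZT4 in RevDKO and 7577, 11587 and 4346 at ZT16, against 21568, 10407 and 8163 in Control at ZT16, and with its score in the fit the RevDKO minus Control difference at ZT16 was -3.19 (limma adjusted p = 0.182). A Control library at ZT22 held 0.233 RPKTM of Il1b, so a value near 0 was not limited to RevDKO. At ZT16 the RevDKO minus Control difference was -3.69 ± 0.96 (SE, n = 3, limma adjusted p = 0.130) and the RevScapTKO minus RevDKO difference 3.11 ± 0.96 (adjusted p = 0.197). Without RevDKO ZT16 replicate 3, the library at 11.6 RPKTM, the differences were -4.81 (adjusted p = 0.00488) and 4.24 (adjusted p = 0.0144), from a group of 2 that was assumed to vary like the others. Leaving out that library also raised the calls over all genes, pooled over the 4 times, from 18 to 329 and from 117 to 451 in these comparisons.

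No gene of the 10 passed at a time point in macrophages: 0 of 10 at each of 4 times in both comparisons, where 0.0323% and 0.210% of all gene and time pairs were called, the former for RevDKO against Control and the latter for RevScapTKO against RevDKO. Single libraries moved these counts: 18 calls became 5 without Control ZT10 replicate 1 or 2 and 515 without Control ZT22 replicate 3, and 117 became 91 without RevDKO ZT22 replicate 2 and 451 without RevDKO ZT16 replicate 3, so the shares have no firm order.

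In hepatocyte libraries the comparison of RevScapTKO with RevDKO called 3 of the 5 genes that passed the filter, Cxcl10, Tnfaip3 and Nlrp3, all of them higher in RevScapTKO. Of all 13326 genes 3498, or 26.2%, were called in this comparison, 1800 of them higher. The median difference of the 5 was 0.85 and that of all genes -0.03. The macrophage markers rose in the same libraries: 11 of 12 were called, with a median of 1.03, and so were 6 of 7 stellate cell markers and 5 of 7 endothelial markers.

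Cxcl10 ranged from 0.793 to 8.54 RPKTM in RevDKO hepatocyte libraries (median 4.21) and from 4.16 to 27.4 in RevScapTKO (median 11.2), and 11 of 12 RevScapTKO libraries exceeded the RevDKO median. At ZT4, where its mean was highest, the RevScapTKO libraries held 10.6, 27.4 and 26.1 RPKTM, all above the RevDKO libraries of that time (3.60, 8.54 and 7.87). The difference over the day was 1.39 ± 0.32 (SE, n = 12, limma adjusted p = 0.00175). Tnfaip3 ranged from 5.78 to 25.3 RPKTM in RevDKO (median 15.4) and from 9.17 to 56.3 in RevScapTKO (median 33.1), a difference of 0.90 ± 0.27 (adjusted p = 0.0126). Nlrp3, which nucleates the complex that activates caspase-1, ranged from 0.0480 to 10.5 RPKTM in RevDKO (median 4.85) and from 3.79 to 12.8 in RevScapTKO (median 7.60), a difference of 0.80 ± 0.25 (adjusted p = 0.0186). The genotypes overlapped for each of these genes. Leaving out any library in turn kept all 3 calls.

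Nlrp3 at ZT10 was the only call at a time point. Its RevDKO libraries held 0.0480, 0.327 and 3.54 RPKTM there and the RevScapTKO libraries 5.63, 8.39 and 7.05, without overlap, a difference of 2.10 ± 0.50 (SE, n = 3, limma adjusted p = 0.0297). Over the 4 times 3.48% of gene and time pairs were called in this comparison, and 1 of the 20 for these genes. The calls were uneven over the day: 1237 of 13326 genes at ZT4 and 121 at ZT10, 23 of the latter higher in RevScapTKO. The call was lost when any of 4 libraries of that time was left out (adjusted p up to 0.201, without RevDKO ZT10 replicate 2), without the filter (adjusted p = 0.0647) and with the macrophage marker score in the fit (1.672, adjusted p = 0.160).

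Il1b (0.85 ± 0.33, limma adjusted p = 0.0572) had a median of 4.44 RPKTM in RevDKO and 6.76 in RevScapTKO, and it passed in 6 of the 36 fits that left out a library, with a lowest adjusted p of 0.0268 without RevDKO ZT16 replicate 3. Nfkbia was close in both, with medians of 54.2 and 58.6 RPKTM (0.17 ± 0.11, adjusted p = 0.266). With the macrophage marker score as a covariate none of the 5 was called: Cxcl10 stood at 0.78 (adjusted p = 0.438), Nlrp3 at 0.25 (adjusted p = 0.824) and Tnfaip3 at -0.10 (adjusted p = 0.927), while the genes called over the whole table went from 3498 to 372. Across the 36 hepatocyte libraries Tnfaip3 had a Pearson correlation of 0.76 with the macrophage marker score, Nlrp3 0.63, Il1b 0.60, Cxcl10 0.31 and Nfkbia 0.10. These libraries share genotype and normalization, and the values are a description.

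**Figure D2:**
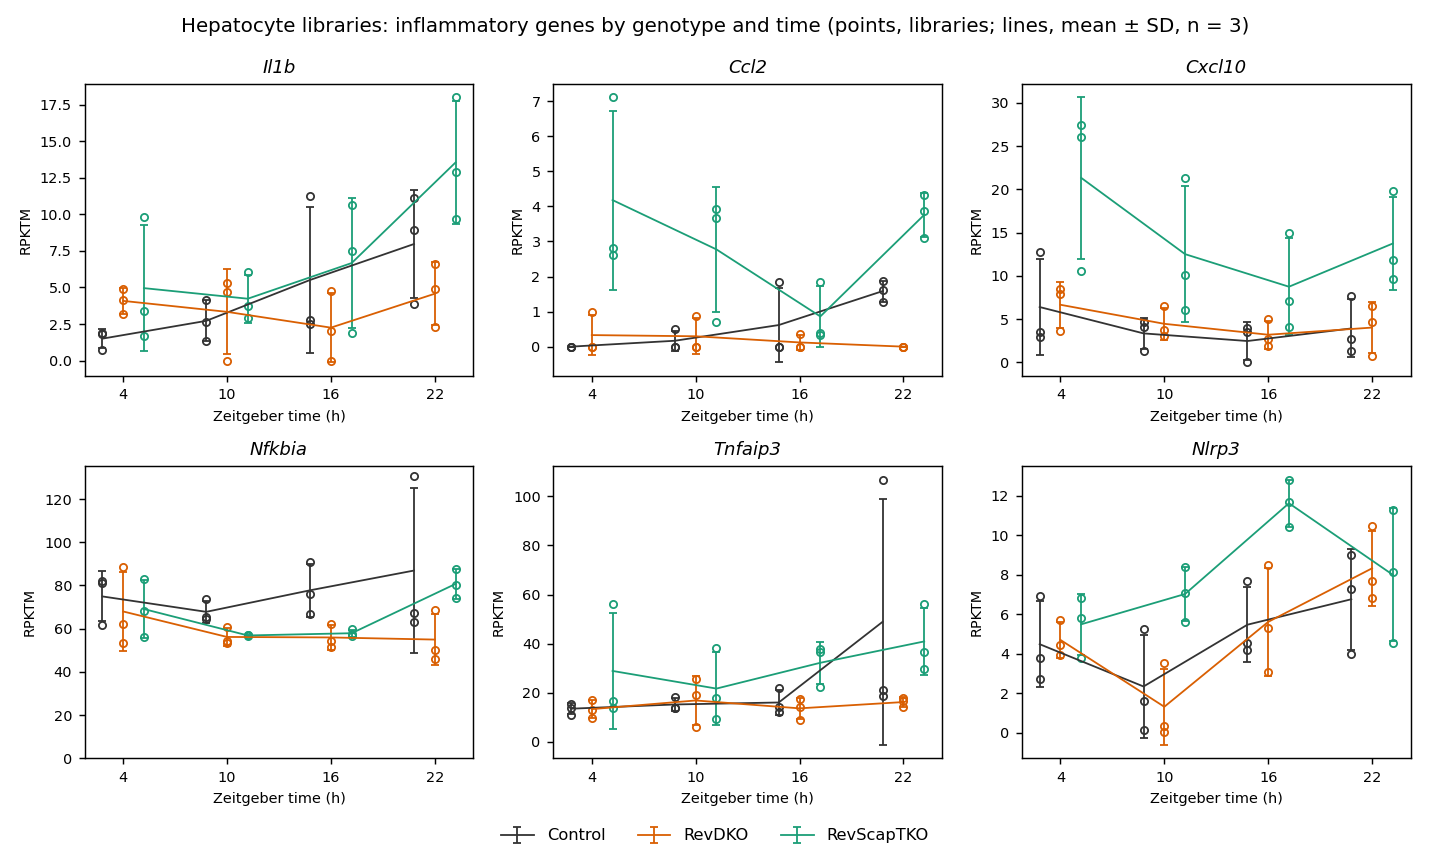
RPKTM of 6 of the genes in hepatocyte libraries against zeitgeber time in hours; each circle is a library, and lines and bars join the mean ± SD of 3 libraries per genotype. Cxcl10 at ZT4 was 10.6 to 27.4 RPKTM in RevScapTKO and 3.60 to 8.54 in RevDKO, and Control ZT22 replicate 1 stands apart for Tnfaip3 at 107 RPKTM.

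**Figure D3:**
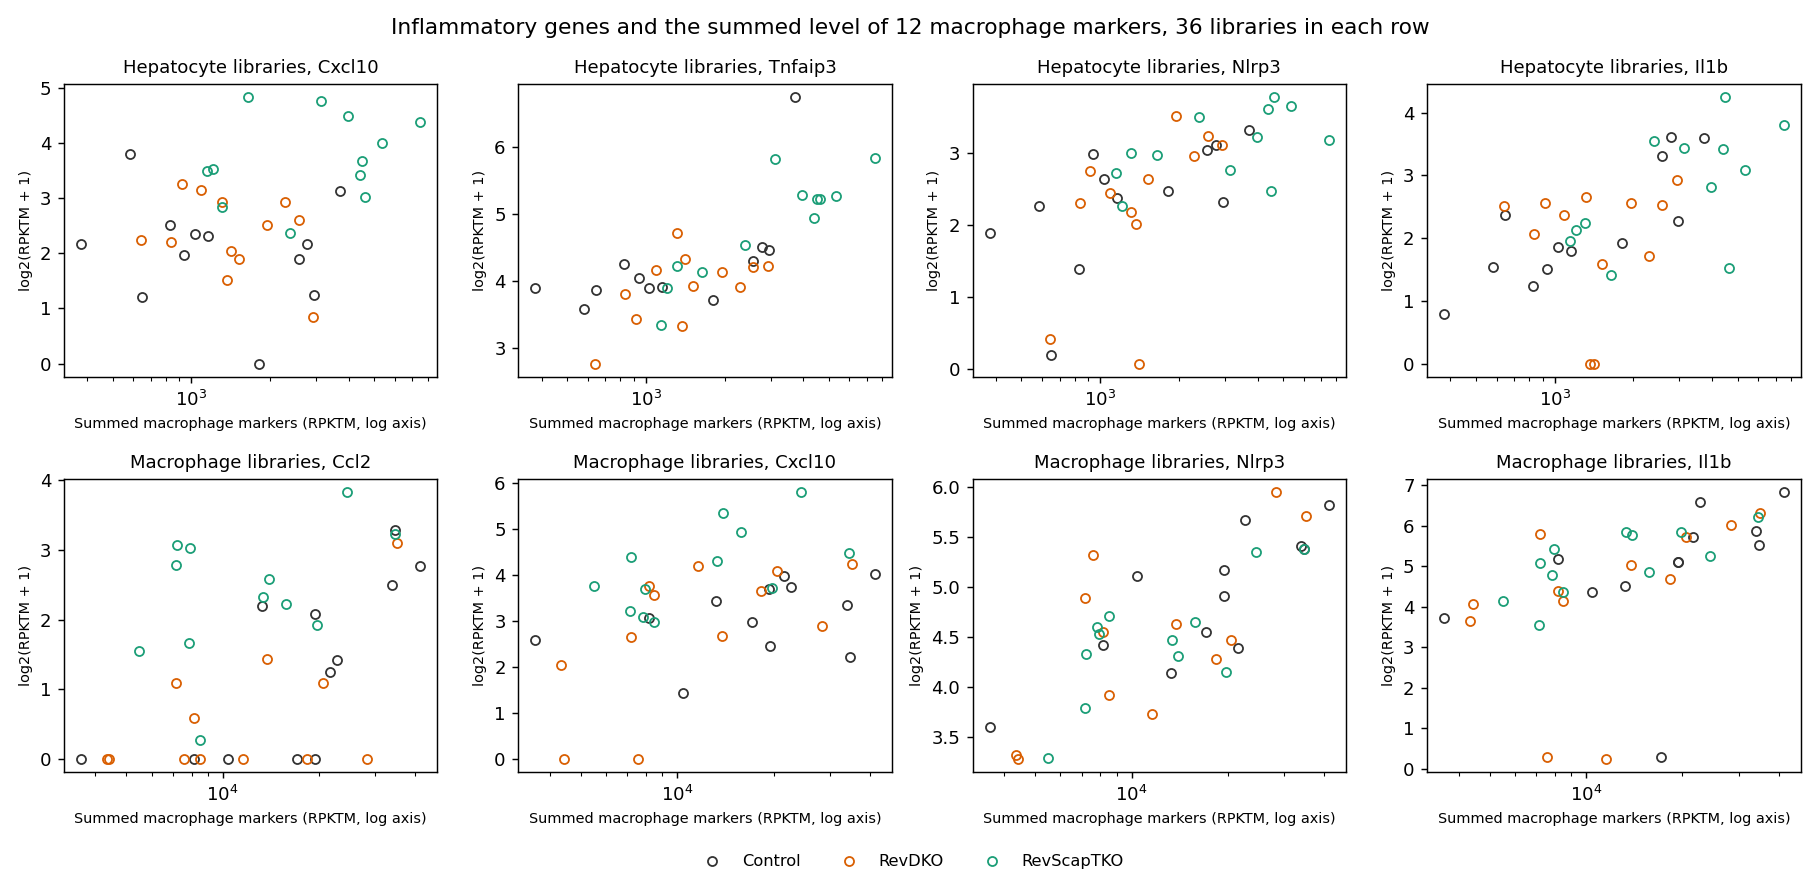
log2(RPKTM + 1) of 4 genes in hepatocyte libraries (upper row) and in liver macrophage libraries (lower row) against the summed RPKTM of 12 macrophage markers on a log axis; each circle is 1 of 36 libraries, coloured by genotype. In hepatocyte libraries the RevScapTKO marker sums reach 7497 RPKTM and those of RevDKO 2931, and Tnfaip3 is higher where the sum is higher (r = 0.76).

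Against Control, RevScapTKO hepatocyte libraries were higher in Cxcl10 and Nlrp3, 2 of 5, in a comparison that called 4789 genes or 35.9%. Cxcl10 ran from 0 to 12.8 RPKTM in Control (median 3.49) and all 12 RevScapTKO libraries exceeded that median, a difference of 1.671 ± 0.32 (SE, n = 12, limma adjusted p = 0.000154). Nlrp3 ran from 0.137 to 8.99 RPKTM in Control (median 4.37), a difference of 0.77 ± 0.25 (adjusted p = 0.0170). Tnfaip3 had a Control median of 14.8 RPKTM but a highest value of 107 in ZT22 replicate 1, and its difference of 0.55 ± 0.27 (adjusted p = 0.105) became 0.75 (adjusted p = 0.0157) without that library. All 12 macrophage markers were called higher in this comparison. With their score in the fit Cxcl10 stood at 0.99 (adjusted p = 0.190), Nlrp3 at 0.16 (adjusted p = 0.855) and Tnfaip3 at -0.56 (adjusted p = 0.237).

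RevDKO against Control in hepatocyte libraries called Nfkbia alone, and it fell. Nfkbia ran from 61.6 to 131 RPKTM in Control (median 70.4) and from 46.2 to 88.5 in RevDKO (median 54.2), and 1 of 12 RevDKO libraries exceeded the Control median, against a Control mean of 76.9 ± 19.3 and a RevDKO mean of 58.8 ± 11.2 (SD). The difference was -0.37 ± 0.11 (SE, n = 12, limma adjusted p = 0.0481), in a comparison that called 590 genes or 4.43%. The call lay at the threshold. It was lost without Control ZT22 replicate 1, which held 131 RPKTM (-0.29, adjusted p = 0.110), and it held in 10 of the 36 fits that left out a library. The other 4 genes had estimates from -0.35 (Tnfaip3) to 0.28 (Cxcl10) and none passed at a time point, where 0.640% of gene and time pairs were called.

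The 5 genes below the filter in hepatocytes were read from a fit without it, over 25095 genes, which called 1.86% of them in RevDKO minus Control, 17.4% in RevScapTKO minus RevDKO and 22% in RevScapTKO minus Control. Ccl2 ran from 0 to 1.9 RPKTM in Control, from 0 to 0.989 in RevDKO and from 0.327 to 7.12 in RevScapTKO, where no library was listed at 0 against 7 and 9 of 12 in the others. Its difference without the filter was 1.57 ± 0.21 for RevScapTKO minus RevDKO (SE, n = 12, limma adjusted p = 1.11e-05) and 1.25 ± 0.21 for RevScapTKO minus Control (adjusted p = 0.000119). Ccl3, at most 3.37 RPKTM, was called in RevScapTKO minus Control in that fit (0.52, adjusted p = 0.0425). Tnf, Ccl4 and Cxcl2, at most 2.69 RPKTM in any hepatocyte library of these 3 genotypes, were not called in any of the 3 comparisons. The macrophage markers that rose in these libraries were 11 of 12 against RevDKO and 12 of 12 against Control, and their part in the Ccl2 and Ccl3 values was not tested.

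**Figure D4:**
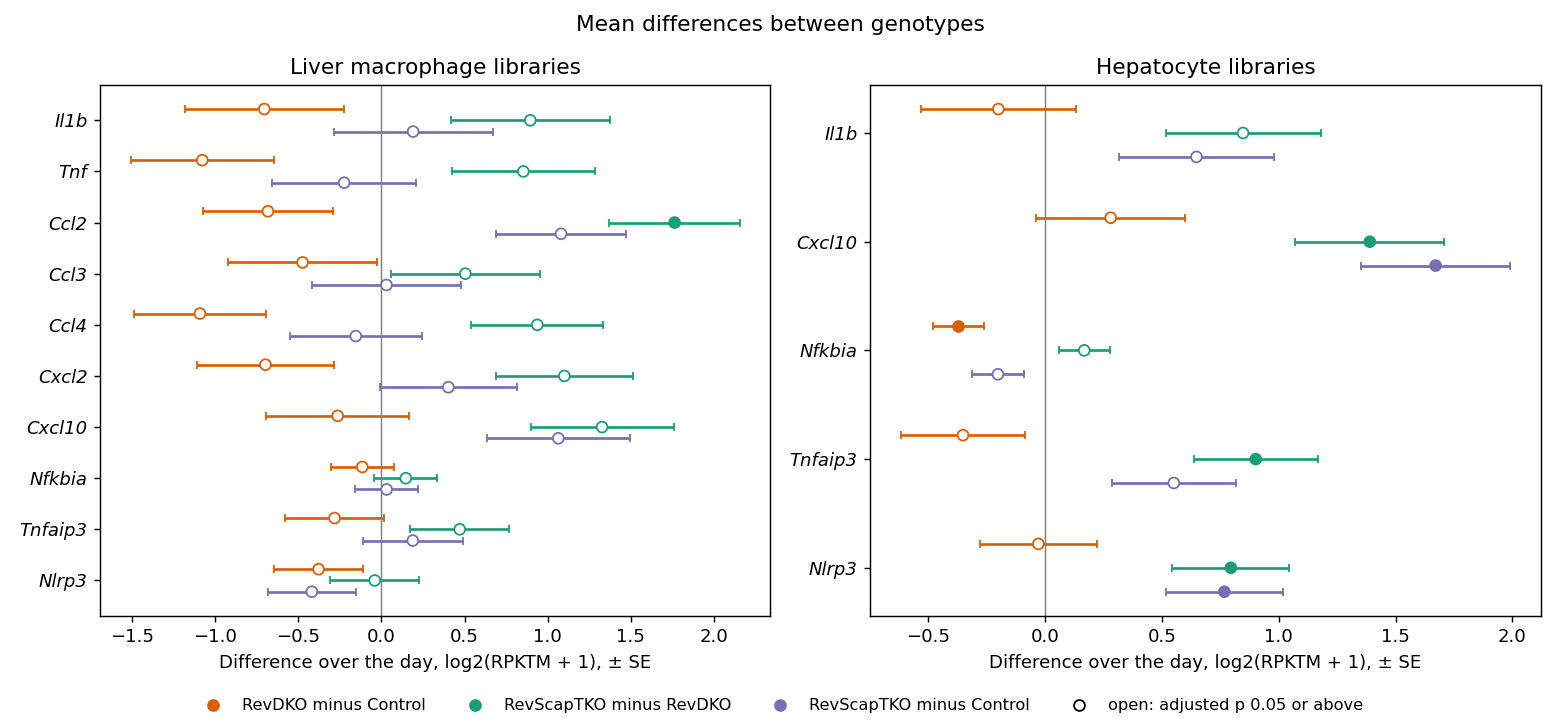
Mean difference over the day on the log2(RPKTM + 1) scale, ± SE, for 10 genes in macrophage libraries and the 5 that passed the filter in hepatocyte libraries; filled circles mark a limma adjusted p under 0.05 and colours the 3 comparisons. In macrophages only Ccl2 in RevScapTKO minus RevDKO is filled, at 1.76, and in hepatocytes 6 circles are filled, the largest Cxcl10 in RevScapTKO minus Control at 1.671.

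A difference in rhythm between genotypes was tested for each gene as a difference in the 24 h cosine and sine terms. No gene of the 10 was called in macrophages, where 0% of genes were called in RevDKO minus Control and 0% in RevScapTKO minus RevDKO, nor in hepatocytes, where 0.203% and 0% were called. The smallest p values were those of Il1b in macrophages for RevDKO minus Control, with an unadjusted p of 0.00945 and a limma adjusted p of 0.891, and of Nlrp3 in hepatocytes for RevScapTKO minus RevDKO, with 0.00842 and 0.944. The fitted peak-to-trough difference of Il1b was 4.39 on the log2 scale in RevDKO macrophages, 1.91 in Control and 0.90 in RevScapTKO.

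Within a genotype, rhythm was called with JTK_CYCLE, an exact rank test against patterns of 18 and 24 h, with its p multiplied by the 7 patterns tried and a rhythmic gene needing 24 h as its best period, on each series entered 2 times in a row as the study did, which makes its p smaller than the 12 libraries alone give. In macrophages it called none of the 10 genes in Control, Il1b in RevDKO (exact JTK_CYCLE p = 9.16e-05, peak at ZT4, highest time mean 14.5 times the lowest) and Cxcl2, Ccl4 and Nlrp3 in RevScapTKO. The share of all tested genes called was 13.4% in Control, 19.7% in RevDKO and 10.3% in RevScapTKO. In hepatocytes it called Il1b in Control with a peak at ZT19, Nlrp3 in RevDKO (exact p = 0.000280, peak at ZT22, ratio 6.38) and Cxcl10 and Nlrp3 in RevScapTKO with peaks at ZT4 and ZT16, where 24.2%, 24.1% and 14.3% of genes were called. Entered once, the series kept the calls of Il1b in RevDKO macrophages (exact p = 0.0130) and Nlrp3 in RevDKO hepatocytes (exact p = 0.0239) and no other, and 1.496% and 3.83% of genes were then called in those libraries. A call in 1 genotype and not in another is no difference between them, and the test of that difference is the one above.

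In the ScapKO tables, normalized apart and without Control libraries, no genotype comparison was possible. In ScapKO macrophages Nfkbia had the highest median at 629 RPKTM, followed by Nlrp3 at 486, Il1b at 312 and Tnfaip3 at 164. Tnfaip3 (84.1 to 189 RPKTM) did not overlap with Cxcl10, the next lower gene (12.2 to 67.8, median 36.1). Tnf had a median of 25.3 RPKTM, Ccl3 17.8, Ccl2 14.9, Ccl4 13.1 and Cxcl2 4.92. ZT22 replicate 2 stood apart: Ccl2, Ccl3, Ccl4 and Cxcl2 were listed at 0 there, Tnf was at 0.447 RPKTM and Il1b at 53.3, the lowest of each, and its macrophage marker sum of 24910 RPKTM lay below the median of 134974. In ScapKO hepatocyte libraries, whose titles say hepatocytes and whose cell type field says macrophages, hepatocyte markers were high and Nfkbia ran from 83.2 to 279 RPKTM, above every value of the other 9 genes. Tnfaip3 had a median of 18.3 RPKTM, Cxcl10 11.7, Il1b 4.17, Nlrp3 2.29 and Ccl2 1.62, and Tnf, Ccl3, Ccl4 and Cxcl2 were listed at 0 in 7 to 10 of 12. Scap itself was 205 to 380 RPKTM in 11 of those libraries and 1006 in ZT22 replicate 2. That replicate also had the highest macrophage marker sum of the ScapKO hepatocyte libraries, 4139 RPKTM against a median of 1110. The part of other cells in its Scap value was not tested.

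JTK_CYCLE called Tnf in ScapKO macrophages (exact p = 0.00724, peak at ZT10) and Cxcl10 and Tnfaip3 in ScapKO hepatocytes, both with a peak at ZT7. Of all genes 15.1% and 14.6% were called. Entered once, the series gave no call among the 10 genes in either.

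**Figure D5:**
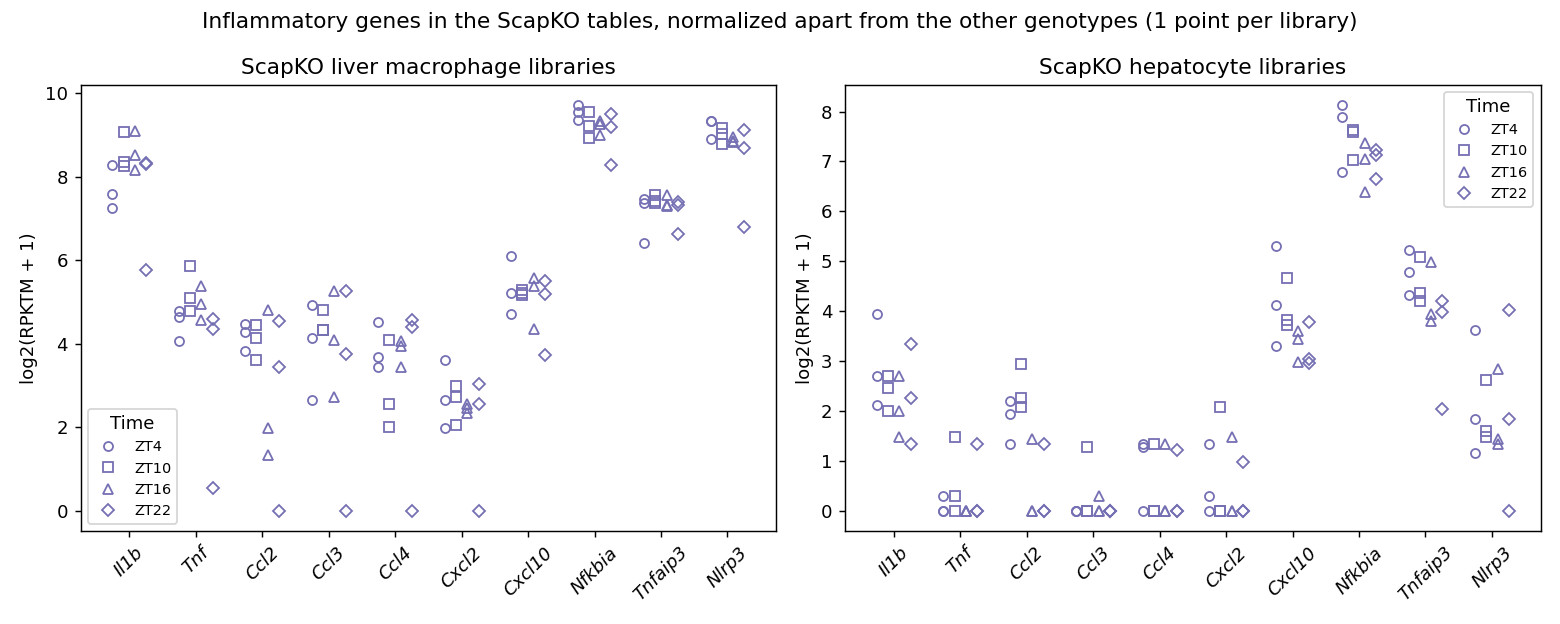
log2(RPKTM + 1) of the 10 genes in ScapKO liver macrophage libraries (left) and ScapKO hepatocyte libraries (right); each symbol is 1 of 12 libraries and its shape gives the zeitgeber time. In macrophages the lowest ZT22 symbol, replicate 2, lies at 0 for Ccl2, Ccl3, Ccl4 and Cxcl2.

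Other genes of the pathway were counted from lists. In macrophages, RevDKO minus Control called none of 14 NF-kB pathway genes, 15 other feedback inhibitors, 10 inflammasome genes, 14 further cytokines and chemokines, 13 receptors or 13 immediate early genes. In RevScapTKO minus RevDKO, Nfkb2, the precursor of the p52 subunit, rose by 0.84 ± 0.23 (SE, limma adjusted p = 0.0396), 1 of 14 NF-kB pathway genes, and the estimates of all 14 were positive with a median of 0.39. Among further cytokines and chemokines 2 of 14 rose, Il1rn, which encodes the IL-1 receptor antagonist (1.719, adjusted p = 0.0260), and the T cell chemokine Ccl5 (1.5897, adjusted p = 0.0169). Casp4, an inflammatory caspase, rose by 1.35 (adjusted p = 0.0487), 1 of 10 inflammasome genes. The immediate early genes Egr1 (1.97), Atf3 (1.37) and Myc (1.32) rose, 3 of 13. No feedback inhibitor of 15 and no receptor of 13 was called, and none of the 12 macrophage markers. In RevScapTKO minus Control, Nfkb2 (0.99) and Ikbkg (0.77) rose, 2 of 14 NF-kB pathway genes.

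In hepatocyte libraries, RevDKO minus Control called 2 of 11 further cytokines and chemokines lower, Cxcl1 (-1.17 ± 0.33, SE, limma adjusted p = 0.0354) and Ccl9 (-0.77 ± 0.17, adjusted p = 0.00404). It also called 2 of 11 immediate early genes lower, Fos (-0.92) and Ier2 (-0.72), and 1 of 10 inflammasome genes, Txnip (-1.01, adjusted p = 0.00745). None of 14 NF-kB pathway genes, 14 feedback inhibitors or 10 receptors was called. Over all genes 4.43% were called in RevDKO minus Control. In RevScapTKO minus RevDKO 8 of 11 further cytokines and chemokines rose, led by the adhesion molecule Icam1 (1.591 ± 0.22, adjusted p = 4.15e-06), Il1rn (1.467) and Vcam1 (1.40). Of 10 receptors 5 rose, among them Tlr2 (1.60), Ccr2 (1.475), Cd14 (1.44) and Tlr4 (0.67), and the IL-1 receptor accessory gene Il1rap fell (-0.39). Relb (1.114), Nfkb2 (0.87) and Ikbkg (0.58) rose among 14 NF-kB pathway genes, Irak3 (0.88) and Tnip1 (0.53) among 14 feedback inhibitors, and Casp1 (0.73), Aim2 (0.72) and P2rx7 (0.72) among 10 inflammasome genes. The immediate early genes Atf3 (1.81), Egr1 (1.4199), Klf6 (1.38) and Myc (1.32) rose, 4 of 11. These counts, 3 of 14, 2 of 14 and 3 of 10 among them, are to be read against the 26.2% of all genes called in this comparison, and they stand beside the rise of 11 of 12 macrophage markers in the same comparison, whose part in them was not tested. In RevScapTKO minus Control, where 12 of 12 macrophage markers rose, 6 of 11 further cytokines and chemokines rose, led by Vcam1 (1.63), and 6 of 10 receptors rose, among them Ccr2 (1.16), while Il1rap fell (-0.39). Of 11 immediate early genes Klf6 (1.33), Egr1 (1.18) and Atf3 (1.003) rose and Ier2 (-1.13) and Junb (-0.87) fell, and of 10 inflammasome genes 4 rose and Il18 fell (-0.60). Among feedback inhibitors Tnip1 rose (0.41) and Zfp36, which destabilizes cytokine transcripts, fell (-0.91, adjusted p = 0.000617), 2 of 14, where 35.9% of all genes were called.

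The genes were only loosely tied to each other across libraries. Pairwise Pearson correlations ran from -0.03 to 0.60 with a median of 0.36 over 45 pairs in 36 macrophage libraries, and from 0.08 to 0.56 with a median of 0.34 over 10 pairs in 36 hepatocyte libraries. The genes most like their mean in macrophages were Plekho2 (r = 0.82), the integrin subunit gene Itgb2 (0.80), the interferon-induced Oas1a (0.80) and Rtp4 (0.78), and Plac8 (0.77). In hepatocyte libraries they were Csf2rb (0.81), Serpina3f (0.79), Icam1 (0.79), Wdfy4 (0.79) and Gbp8 (0.78). These correlations describe libraries that share genotype, time and normalization.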

How the data were processed

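Bulk RNA was measured in 96 libraries, 3 per group. After depletion of ribosomal RNA and stranded library preparation, the authors mapped reads to mm9 with STAR, quantified RefSeq transcripts with HOMER and deposited RPKM-type values (RPKTM, 10 times an RPKM), quantile normalized within each of 4 tables. Tool versions were not given in the sources used here. Quantile normalization gives each library of a table the same set of values, so it can hide differences in total RNA.

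Groups came from the labels. Values were taken as log2(RPKTM + 1), kept if above 5 RPKTM in at least 3 libraries, and fitted with limma 3.58.1 (R 4.3.3, trend) over the 36 libraries of a cell type, with Benjamini-Hochberg adjustment over all genes tested and a threshold of 0.05. Contrasts were the mean over the day, each time, and the 24 h cosine and sine terms. JTK_CYCLE was re-implemented with its exact null in Python 3.11.15: periods of 18 and 24 h, each series entered 2 times, p multiplied by 7 patterns and not adjusted over genes, a rhythmic gene needing a ratio of time means above 1.5 and 2 libraries above 5 RPKTM. Both were tested on simulated data. The methods call the libraries biological replicates, but nothing ties each to an animal, so p-values measure the spread between libraries. Alternatives were another pseudocount, filter, transcript choice, fit and covariate, a replicate block and leaving out libraries; the macrophage marker covariate in macrophage tables was added after the data were seen. The genes and the lists were chosen with earlier results of these data known. All 10 genes were named whatever their values, and from each list the 3 called genes with the largest difference, or all where 5 or fewer were called in a direction, except 1 gene that is not reported here; the genes most like the set were the 5 with the highest correlation.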

Additional observations from a re-analysis of the deposited data

How the results depend on the processing

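Ccl2 in macrophages (RevScapTKO minus RevDKO) passed under 44 of 44 alternatives run. The same side of the threshold was kept by Cxcl10, Nlrp3 and Tnfaip3 (RevScapTKO minus RevDKO) and Cxcl10 and Nlrp3 (RevScapTKO minus Control) in hepatocytes under 41 of 42; the exception was the macrophage marker covariate. Sequencing depth was not known, so no counting error could be given, and values near 0 carry the least precision. The cause of each change below was not tested.

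In hepatocytes, RevDKO minus Control called 0 of the genes without the filter, with only these 2 genotypes in the fit and with the replicate block (1 in the report), and 0 to 1 without a library. RevScapTKO minus RevDKO called 0 with the macrophage marker covariate (3 in the report), and at single times 2 without the filter (Ccl2 at ZT4 and ZT22, with Nlrp3 at ZT10 lost), 0 with the covariate and 0 to 1 without a library (1 in the report). RevScapTKO minus Control called 4 without the filter and 0 with the covariate (2 in the report). In macrophages, RevScapTKO minus RevDKO called 2 with the macrophage marker covariate and 1 to 2 without a library (1 in the report), RevScapTKO minus Control 1 without the libraries high in Alb, 2 with the macrophage covariate and 0 to 1 without a library (0 in the report), and RevDKO minus Control 0 to 2 without a library, 2 of them without Control ZT22 replicate 3. At single times both macrophage comparisons called 0 to 1 without a library.

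Over all genes in hepatocytes, using all transcripts gave 1086 calls for RevDKO minus Control, 6791 for RevScapTKO minus RevDKO and 9197 for RevScapTKO minus Control, and the macrophage covariate gave 372 and 789 for the latter comparisons. In macrophages, RevDKO minus Control (80 in the report) called 49 with a pseudocount of 0.1, 41 without the filter, 167 with the replicate block, 154 with a hepatocyte marker covariate, 50 without the libraries high in Alb and 48 to 475 without a library. RevScapTKO minus RevDKO (419) called 652 with all transcripts, 1167 with the hepatocyte and 720 with the macrophage covariate, and 314 to 1179 without a library. RevScapTKO minus Control (524) called 963 with all transcripts, 836 with the replicate block, 1347 with the hepatocyte covariate and 354 to 961 without a library. Whether replicate numbers pair the libraries was not settled, and the main fit did not pair them. Deviations of same-numbered libraries correlated from -0.145 to 0.28 in hepatocytes, above 0.1 in 13 of 36 pairs. In macrophages the range was -0.199 to 0.372, above 0.1 in 15 of 36. The replicate block changed no other call among the 10 genes.

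For rhythm, the series entered once called 0 of the genes in Control and RevScapTKO hepatocytes, RevScapTKO macrophages and both ScapKO cell types. Without the filter on low values and without the required ratio of time means, 4 were called in RevScapTKO hepatocytes and 2 in RevDKO macrophages. Of all 25095 genes 3082 and 3025 were then called in those libraries. Cosine regression was counted at an unadjusted limma p under 0.05. It gave 1 in RevScapTKO macrophages and 0 in ScapKO hepatocytes and macrophages, and with the macrophage covariate 2 in Control, 1 in RevScapTKO and 2 in ScapKO macrophages. Over all genes it called 668 of 12546 in RevScapTKO macrophages, and 791 of 14374 in ScapKO macrophages with that covariate. Without the libraries high in Alb 1 was called in Control macrophages. Without a library the counts were 0 to 2 in Control, 1 to 2 in RevDKO, 1 to 2 in RevScapTKO and 0 to 2 in ScapKO hepatocytes, and 0 to 1, 1 to 2, 0 to 4 and 0 to 2 in the macrophages of those genotypes.

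Estimates that turned sign were Tnfaip3 in hepatocytes with the macrophage covariate (-0.10 in RevScapTKO minus RevDKO, -0.56 in RevScapTKO minus Control). In macrophages for RevDKO minus Control they were Cxcl10 with the macrophage covariate (0.14; -0.53 to 0.0030 without a library) and Nfkbia without the libraries high in Alb (0.012) and with the covariate (0.092). For RevScapTKO minus Control they were Ccl3 with the hepatocyte covariate (-0.12; -0.24 to 0.20 without a library), Ccl4 without the libraries high in Alb (0.0029), with the macrophage covariate (0.11) and without a library (-0.46 to 0.049), and Tnf with a pseudocount of 0.1 (0.12), without the libraries high in Alb (0.091) and with the macrophage covariate (0.093). Without a library, Il1b ranged from -0.34 to 0.016 and Nlrp3 from -0.19 to 0.13 in hepatocytes (RevDKO minus Control), Nlrp3 from -0.16 to 0.11 in macrophages (RevScapTKO minus RevDKO), and Il1b from -0.22 to 0.59 and Nfkbia from -0.12 to 0.14 in macrophages (RevScapTKO minus Control). None of these estimates passed the test in the report except Tnfaip3 in RevScapTKO minus RevDKO.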
